A study of Mus musculus with 6 samples.

Results

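Osteoclast and macrophage fusion genes were examined in RNA-seq of bone marrow-derived macrophages from MSR1 KO and MSR1 WT mice. The set had 10 members out of 52550 genes in the deposited table, found by their symbols: Tnfrsf11a, Oscar, Calcr, Nfatc1, Dcstamp, Ocstamp, Itgb3, Atp6v0d2, Acp5 and Ctsk. They were chosen by name as markers of the osteoclast programme and selected on the KO against WT counts of these libraries, in which Atp6v0d2 had been seen lower in KO. The KO and WT values of the members are therefore given as a description, and how many of them passed the fit over all genes is printed only beside the share of all genes that did. MSR1 is a scavenger receptor of macrophages that takes up modified lipoproteins. The mice were on the C57BL/6 background, the knockout was carried by the whole animal, and the WT mice shared that background. Marrow cells of both genotypes were grown with M-CSF at 25 ng/ml for 7 days. They were then held for 48 h in transwells with bone marrow stem cells (BMSCs), which differentiate into bone-forming cells. RANKL, the cytokine that drives osteoclast formation in culture, was not among the additions named in the labels. Each genotype had 3 libraries of bulk RNA, which the study calls biological replicates. The ages of the mice, and whether each library came from its own animal or culture, were not stated, so p-values measure only the spread between these libraries.

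Osteoclasts are multinucleated, bone-resorbing cells that arise from the monocyte and macrophage lineage. M-CSF keeps the precursors alive, and RANKL binds its receptor RANK to switch on NFATc1, the master transcription factor of the lineage. NFATc1 then turns on genes for cell fusion (Dcstamp, Ocstamp, Atp6v0d2), for attachment to bone (Itgb3) and for resorption (Acp5, Ctsk). Macrophages can also fuse into giant cells, a process that shares several of these genes.

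Among the members, Atp6v0d2, Acp5 and Ctsk were lower in all 3 MSR1 KO libraries than in any MSR1 WT library. The falls were 2.80-fold, 1.98-fold and 1.80-fold. Of all 16402 tested genes, 13.4% were lower in this way, and the choice of the members used this contrast. The receptor gene Tnfrsf11a and the transcription factor gene Nfatc1 act upstream of Atp6v0d2, Acp5 and Ctsk. They were at 1.11-fold and 1.12-fold of the WT level. Itgb3 was at 1.39-fold of the WT level with overlapping groups. Dcstamp and Ocstamp lay near or below 1 CPM (counts scaled by library size), and Oscar and Calcr were not detected beyond 2 reads in a single library.

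Total counts were between 36143518 and 47417448 per library. Msr1, the targeted gene, had 2118, 1825 and 2000 counts in the KO libraries and 7543, 9163 and 9219 counts in the WT libraries. It fell by 2.02 on the log2 scale (standard error 0.14, adjusted p = 0.0012, edgeR's quasi-likelihood test with Benjamini-Hochberg adjustment), so the labels and the targeted gene went the same way. Macrophage markers were abundant in both groups. Lyz2 had the highest level of these 12 genes, with means of 13391 CPM in KO and 14904 CPM in WT. In KO 2 of them rose (Fcgr1 by 1.14 and Aif1 by 0.67 on the log2 scale) and 1 fell (Mrc1 by 0.39). These calls were 25% of the 12, against 4.91% of all tested genes. The summed markers, of which Lyz2 was the largest part, ranged from 27620 to 29080 CPM in KO. In WT they ranged from 27700 to 30530 CPM. In bulk RNA, fewer cells of a type and less RNA per cell cannot be told apart.

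The closest relative of Atp6v0d2 is its paralogue, and the 2 had to be told apart by their reads. Atp6v0d2 and Atp6v0d1 encode alternative d subunits of the vacuolar proton pump (V-ATPase). Over 1053 aligned coding bases, 694 were identical (65.9%), and the longest run of identical bases was 17 long. The window around that run, coding bases 130 to 206 of each gene in GRCm38, is shown with the shared run in capitals.
Atp6v0d2: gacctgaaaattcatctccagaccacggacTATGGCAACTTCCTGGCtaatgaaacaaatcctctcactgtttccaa
Atp6v0d1: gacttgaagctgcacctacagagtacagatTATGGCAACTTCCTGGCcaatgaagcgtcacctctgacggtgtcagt
Outside the capitals the sequences differed at short intervals, so a longer read could not match both coding sequences without mismatches. Dcstamp and Ocstamp, the other related pair, had 61.6% identity and a longest shared run of 13 bases.

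Promoter sequences were available in the RefSeq table (GRCm38.p6) for 5 of the 10 members, with 8 annotated starts, and the missing entries were Atp6v0d2, Dcstamp, Itgb3, Nfatc1 and Ocstamp. The 250 bases before the start are shown for Acp5 and Ctsk, members that were lower in KO, and for Tnfrsf11a, which was not. Searched on both strands were GGAAA (the NFAT core), TGANTCA (AP-1), CACGTG (an E-box bound by MITF and its relatives), CATGTG (a second such E-box) and GAGGAA (the PU.1 core). GGAAA and GAGGAA overlap where they occur as GAGGAAA. Capitals mark the matches, and a match on the opposite strand appears as its reverse complement.
Acp5, upstream start, chr9:22135747-22135996, minus strand: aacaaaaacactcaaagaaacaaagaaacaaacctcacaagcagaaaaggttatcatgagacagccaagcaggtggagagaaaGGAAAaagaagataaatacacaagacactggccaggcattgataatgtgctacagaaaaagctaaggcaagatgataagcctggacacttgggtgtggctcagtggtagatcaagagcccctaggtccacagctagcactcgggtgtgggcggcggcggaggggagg
Acp5, downstream start, chr9:22130599-22130848, minus strand: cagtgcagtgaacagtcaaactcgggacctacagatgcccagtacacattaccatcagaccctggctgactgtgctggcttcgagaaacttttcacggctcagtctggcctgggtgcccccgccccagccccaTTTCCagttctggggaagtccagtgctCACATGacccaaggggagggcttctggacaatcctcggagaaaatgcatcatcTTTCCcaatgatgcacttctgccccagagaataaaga
Ctsk, chr3:95498960-95499209, plus strand: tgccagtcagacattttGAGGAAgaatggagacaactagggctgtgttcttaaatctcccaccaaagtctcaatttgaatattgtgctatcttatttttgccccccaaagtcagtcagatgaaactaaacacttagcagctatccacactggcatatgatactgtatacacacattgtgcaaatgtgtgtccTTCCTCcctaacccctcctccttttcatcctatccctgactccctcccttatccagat
Tnfrsf11a, chr1:105780473-105780722, plus strand: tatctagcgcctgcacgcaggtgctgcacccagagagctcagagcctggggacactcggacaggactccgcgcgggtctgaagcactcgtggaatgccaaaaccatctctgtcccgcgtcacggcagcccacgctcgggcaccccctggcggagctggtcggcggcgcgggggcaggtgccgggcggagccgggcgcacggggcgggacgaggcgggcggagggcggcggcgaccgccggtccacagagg
Acp5 has 3 annotated starts, of which the outermost are shown, and the window of the middle start held GGAAA at 1 place. The downstream Acp5 window held GGAAA at 2 places and CATGTG at 1, and the upstream window held GGAAA at 1. Ctsk held GAGGAA at 2 places, and Tnfrsf11a held none of the 5 motifs. Of 32851 mouse promoter windows of this length, 55.6% held GGAAA, 6.75% held TGANTCA, 6.02% held CACGTG, 12.3% held CATGTG and 23.3% held GAGGAA. The Tnfrsf11a window was 73.6% G and C, against 43.2% for Ctsk and 48.0% and 54.4% for the Acp5 windows shown. These matches describe the letters only, and binding was not measured.

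Tnfrsf11a encodes RANK, the receptor for RANKL (chromosome 1 from 105780718 to 105847981, plus strand, GRCm38). It had 3080, 3919 and 3590 counts in KO and 3157, 3512 and 3510 counts in WT. The groups overlapped, with means of 87.1 ± 10.7 CPM in KO and 78.5 ± 5.72 CPM in WT (SD, n = 3, normalized by TMM, as for all CPM values here), and a log2 fold change of 0.15 (standard error 0.10). The difference between the means was smaller than the SD of the KO libraries. Oscar, a collagen-binding co-stimulatory receptor (chromosome 7 from 3609813 to 3616157), had 0, 0 and 2 counts in KO and 0 in each WT library. Calcr, the calcitonin receptor of mature osteoclasts (chromosome 6 from 3685680 to 3764714), had 0 counts in all 6 libraries. At these depths a count of 0 allows up to 3 counts, which is between 0.0632 and 0.0835 CPM per library and covers counting error only. Neither receptor gene passed the filter on low counts, which 8 of the 10 members passed.

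Nfatc1 (chromosome 18 from 80606205 to 80713071, minus strand) had 4031, 4716 and 5219 counts in KO and 4248, 4661 and 4328 counts in WT. Scaled to library size, the 3 KO libraries lay above the 3 WT libraries, at 114 ± 3.58 CPM against 102 ± 3.38 CPM. The log2 fold change was 0.16 (standard error 0.07). It did not pass the fit over all genes (adjusted p = 0.238, edgeR's quasi-likelihood test with Benjamini-Hochberg adjustment). Its side was opposite to that of Atp6v0d2, Acp5, Ctsk and Dcstamp, and the same as that of Tnfrsf11a, Itgb3 and Ocstamp.

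Dcstamp, which encodes a multipass membrane protein needed for osteoclast and giant cell fusion (chromosome 15 from 39745932 to 39760934, plus strand), had 32, 8 and 12 counts in KO and 34, 48 and 55 counts in WT. KO replicate 1, at 0.89 CPM, lay above WT replicate 1, at 0.82 CPM, so the groups overlapped. The log2 fold change was -1.24 (standard error 0.60), and without KO replicate 1 it was -2.18. Ocstamp, a related fusion gene (chromosome 2 from 165393760 to 165400405, minus strand), had 40, 20 and 28 counts in KO and 8, 25 and 26 counts in WT. Its groups overlapped too, with a log2 fold change of 0.70 (standard error 0.56), and the difference between genotypes was not resolved at these counts for either fusion gene. Itgb3, the β3 chain of the αvβ3 integrin with which osteoclasts hold bone (chromosome 11 from 104608000 to 104670476, plus strand), had 607, 897 and 815 counts in KO and 501, 559 and 708 counts in WT. WT replicate 3, at 17.1 CPM, lay above KO replicate 1, at 16.9 CPM, and the other WT libraries lay below every KO library. The log2 fold change of Itgb3 was 0.47 (standard error 0.18). Itgav, which encodes its αv partner, varied within groups, with 2898, 6522 and 2756 counts in KO and 3114, 3524 and 6043 counts in WT.

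Atp6v0d2 encodes the d2 subunit of the proton pump, which is enriched in osteoclasts and takes part in precursor fusion (chromosome 4 from 19876841 to 19922605, minus strand, 9 exon blocks). It had 2376, 2291 and 3010 counts in KO and 6992, 7080 and 8593 counts in WT. The KO libraries lay close together at 62.8 ± 4.62 CPM and the WT libraries at 176 ± 29.8 CPM, with no overlap. The log2 fold change was -1.48 (standard error 0.13), the 194th lowest of 16402 tested genes. When any single library was dropped, the Atp6v0d2 value ran from -1.59 to -1.34.

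Acp5 encodes tartrate-resistant acid phosphatase (TRAP), the histochemical marker of osteoclasts (chromosome 9 from 22126727 to 22135711, minus strand). It had 697, 618 and 980 counts in KO and 1278, 1547 and 1950 counts in WT. The groups did not overlap, at 18.7 ± 2.85 CPM in KO and 36.9 ± 8.92 CPM in WT, and the log2 fold change was -0.98 (standard error 0.18). The gene 6530413G14Rik on the opposite strand, whose identifier (ENSMUSG00000111856.1) is listed as AC163623.3 in the deposited table, covers 6.75% of the Acp5 exon bases and had means of 1.04 CPM in KO and 2.48 CPM in WT. The strand setting of the counting is not given in the sources used here, so reads in that stretch cannot be assigned to one strand. Ctsk encodes cathepsin K, the collagen-degrading protease of osteoclasts (chromosome 3 from 95499256 to 95509362, plus strand). It had 143, 155 and 215 counts in KO and 280, 358 and 337 counts in WT. These groups were also apart, at 4.16 ± 0.40 CPM and 7.49 ± 0.68 CPM, with a log2 fold change of -0.85 (standard error 0.16).

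**Figure D1:**
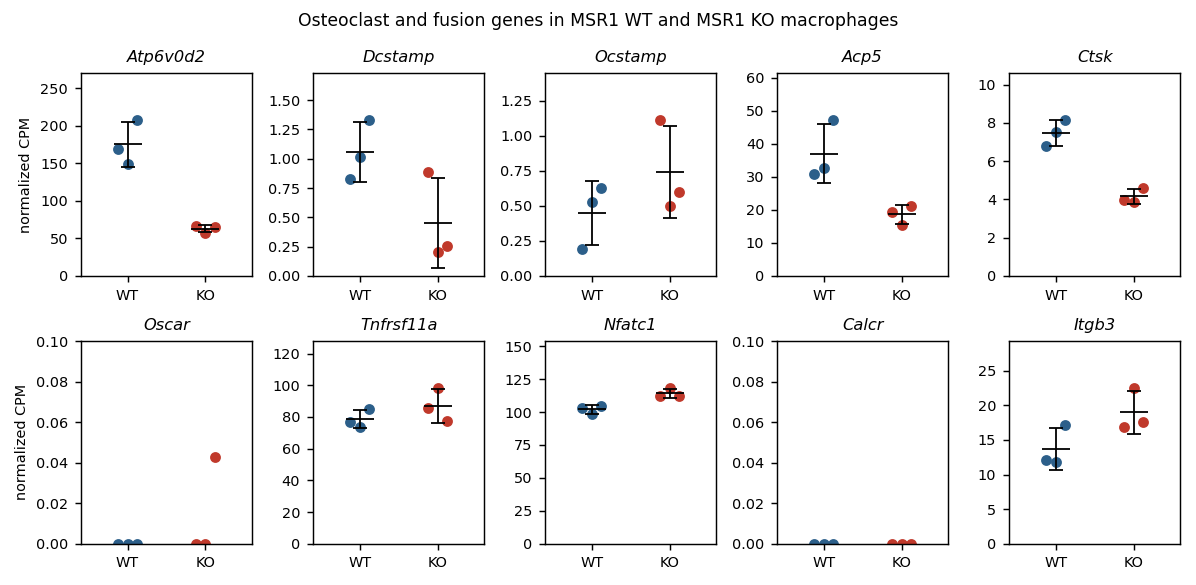
Normalized CPM of each member in the 3 WT (blue) and 3 KO (red) libraries, 1 point per library, with the mean and SD for the members that passed the filter. Every axis starts at 0 and has its own scale. Atp6v0d2, Acp5 and Ctsk are lower in all KO libraries, at 62.8, 18.7 and 4.16 CPM on average, while Tnfrsf11a overlaps between genotypes and Calcr is at 0 throughout.

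Of the 8 members that entered the fit over all genes, 3 (Atp6v0d2, Acp5 and Ctsk) were lower at an adjusted p under 0.05 and 0 were higher. Over all 16402 tested genes, 2.66% were lower, 2.25% were higher and 4.91% were called in either direction. With a library left out, Atp6v0d2 was called in all 6 fits, and Acp5 and Ctsk each lost their call in 5 of the 6. The groups did not overlap in 4 of the 8 members, with 3 below and 1 (Nfatc1) above, and the background was 25.5% of tested genes in either direction, 13.4% below and 12.1% above. Nothing about the members is read from these counts, since the choice of the members used this contrast.

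**Figure D2:**
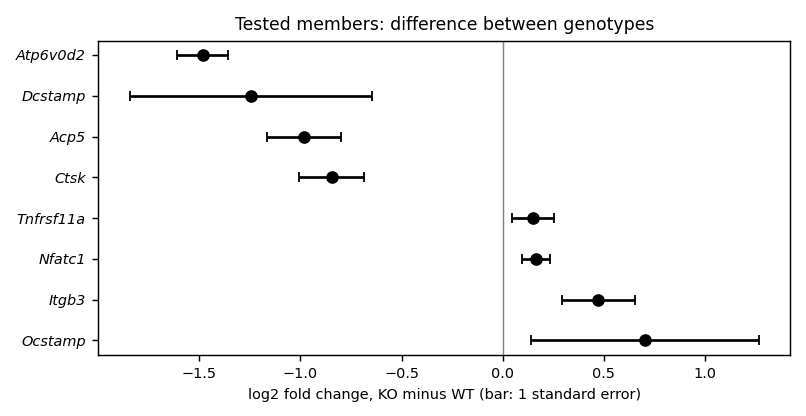
Log2 fold change of KO against WT for the 8 members that passed the filter, in order, with bars of 1 standard error. Atp6v0d2 stands at -1.48 with a short bar and Dcstamp at -1.24 with a bar of 0.60. Tnfrsf11a and Nfatc1 lie just above 0, at 0.15 and 0.16.

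Per kilobase of annotated exon, which allows levels to be compared between genes, Atp6v0d2 had 64.6 ± 11 CPM per kb in WT, the highest level of the members. It was followed by Acp5 at 18.2 ± 4.40, Nfatc1 at 13.7 ± 0.45 and Tnfrsf11a at 13.1 ± 0.96 CPM per kb in WT. The WT levels of Nfatc1 and Tnfrsf11a differed by less than the SD of Tnfrsf11a. Ctsk followed at 4.96 ± 0.45 CPM per kb in WT and Itgb3 at 2.32 ± 0.51. Dcstamp and Ocstamp closed the order in WT at 0.40 ± 0.10 and 0.12 ± 0.06 CPM per kb. In KO the level of Atp6v0d2 was 23.1 ± 1.70 CPM per kb and still the highest. Nfatc1 (15.3 ± 0.48) and Tnfrsf11a (14.6 ± 1.78 CPM per kb) then stood above Acp5 (9.19 ± 1.40 CPM per kb), and Itgb3 (3.22 ± 0.52) and Ctsk (2.75 ± 0.26 CPM per kb) differed by less than the SD of Itgb3.

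The proton pump acidifies lysosomes in every cell and the resorption pit beneath an osteoclast, and most of its subunits exist in alternative forms. Of 24 other V-ATPase genes, 19 were tested, 1 fell and 0 rose, with a median log2 fold change of -0.02 over the 19 against -0.0023 over all tested genes. The gene that fell was Atp6v0a1, encoding a widely expressed a subunit, with 5242, 4873 and 6103 counts in KO and 8069, 8916 and 9088 in WT. It fell by 0.59 on the log2 scale (standard error 0.09, adjusted p = 0.0186, edgeR's quasi-likelihood test with Benjamini-Hochberg adjustment), and its adjusted p was 0.0737 without WT replicate 1. Tcirg1, the a3 subunit that osteoclasts use to acidify bone, had 462, 489 and 451 CPM in KO. All WT libraries lay below these, at 384, 403 and 421 CPM, and the log2 fold change of 0.21 (standard error 0.07) did not pass the test (adjusted p = 0.122, same edgeR test).

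Atp6v0d1, the ubiquitous d subunit, had 4950, 4917 and 7006 counts in KO and 5967, 7347 and 5563 counts in WT, a log2 fold change of -0.08 (standard error 0.09). The share of d2 in the reads of both d subunits, per exon length, was 24.1%, 23.5% and 22.1% in the 3 KO libraries and 43.6%, 38.9% and 50.5% in the 3 WT libraries. The KO libraries fell in a narrow band well below the WT libraries, with means of 23.2 ± 1.02% and 44.3 ± 5.84% and a difference of -21.1 percentage points. Taken per coding length, the means were 31.5 ± 1.23% and 54.7 ± 5.84%.

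**Figure D3:**
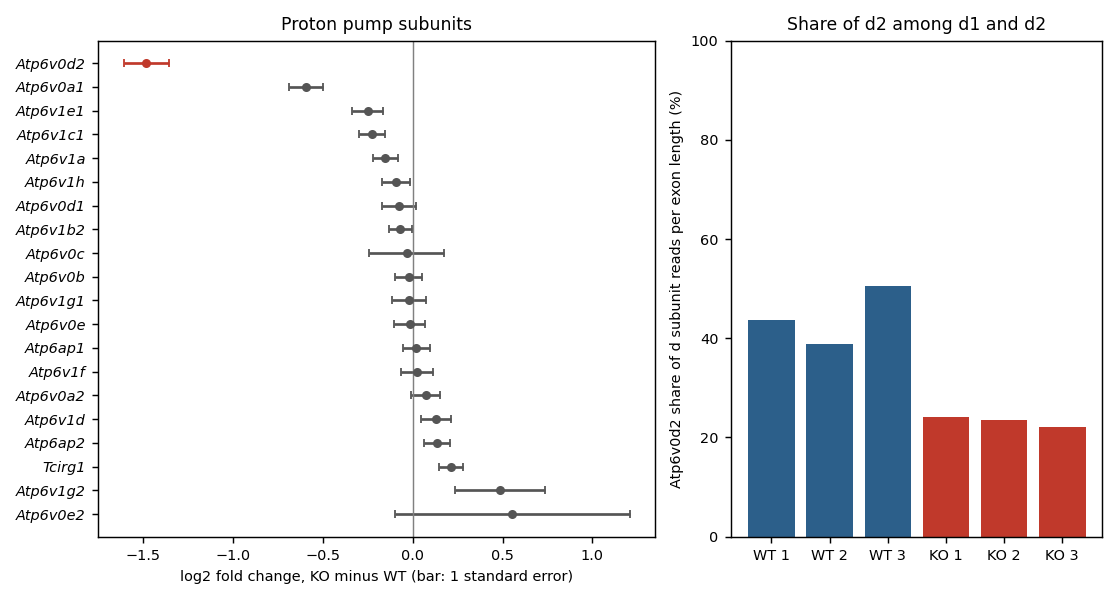
Left, log2 fold change of KO against WT for Atp6v0d2 (red) and the 19 other proton pump genes tested (grey), with bars of 1 standard error. Right, share of Atp6v0d2 in the d subunit reads per exon length in each library, from 38.9% to 50.5% in WT and from 22.1% to 24.1% in KO. Atp6v0d2 lies at -1.48, apart from the other subunits, which run from -0.59 to 0.55.

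The other genes of the programme were described by 9 lists that follow the order of osteoclast formation. Of 204 listed genes outside the members, 190 were tested, 17 fell and 5 rose at an adjusted p under 0.05 (edgeR's quasi-likelihood test with Benjamini-Hochberg adjustment), which is 8.95% and 2.63% of the list against 2.66% and 2.25% of all tested genes. The lists were chosen with earlier results of these data known, so these shares are given as a description. The median log2 fold change of the 190 was 0.02. The number called moved with the libraries: of the 22 calls, 6 were shared without KO replicate 1, 11 without KO replicate 2, 12 without KO replicate 3, 3 without WT replicate 1, 8 without WT replicate 2 and 15 without WT replicate 3. Cd9, Csf1 and Spp1 were called with each of the 6 libraries left out.

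Among 29 genes of RANKL and RANK signalling, all of them tested, 3 fell and 0 rose, with a median log2 fold change of 0.03. Tnfrsf11b, which encodes the secreted RANKL decoy osteoprotegerin, had 586, 768 and 628 counts in KO and 1563, 1624 and 1359 counts in WT. It fell by 1.10 on the log2 scale (standard error 0.14, adjusted p = 0.0104, edgeR's quasi-likelihood test with Benjamini-Hochberg adjustment), and its adjusted p was 0.0555 without WT replicate 1. The RANKL gene itself, Tnfsf11, had 16, 32 and 36 counts in KO and 25, 12 and 18 counts in WT, so the ligand was near the limit of detection in both groups. Src, a kinase needed for the resorbing membrane of osteoclasts, fell by 0.88 (standard error 0.16, adjusted p = 0.0267), and Lgr4, a further receptor for RANKL, fell by 0.83 (standard error 0.17, adjusted p = 0.0318, same edgeR test). Both of these calls were lost in 5 of the 6 fits with a library left out, with adjusted p up to 0.0883 and 0.109. Traf6, the adaptor that RANK recruits, had means of 53.4 ± 2.75 CPM in KO and 50.1 ± 1.52 CPM in WT with overlapping groups.

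Receptors that pair with the ITAM adaptors DAP12 (Tyrobp) and FcRγ (Fcer1g) give the calcium signal that activates NFATc1. Of 25 such genes, 24 were tested, 1 rose and 1 fell, with a median log2 fold change of 0.07. Lyn, a Src-family kinase, rose by 0.43 (standard error 0.09, adjusted p = 0.0326), and Blnk, an adaptor downstream of the ITAM kinases, fell by 0.66 (standard error 0.14, adjusted p = 0.0402, edgeR's quasi-likelihood test with Benjamini-Hochberg adjustment). Without WT replicate 1 these adjusted p were 0.135 and 0.138. Tyrobp had means of 638 ± 48.5 CPM in KO and 614 ± 53.4 CPM in WT, and its partner receptor Trem2 had 621 ± 61.1 CPM and 593 ± 16.7 CPM. In both genes the genotypes overlapped. Fcer1g was higher in each KO library than in any WT library, at 1079 ± 46.6 CPM against 898 ± 23.5 CPM. Its adjusted p was 0.0502 in the same test. It was 0.0463 with DESeq2's size factors, 0.0477 with at least 10 counts in every library and 0.00921 by DESeq2's Wald test. It was 0.0639 with library size alone, 0.0704 with no filter, 0.109 with the replicate block and 0.0831 to 0.179 with a library left out.

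Of 21 other transcription factors of the osteoclast programme, 0 were called at an adjusted p under 0.05 by edgeR's quasi-likelihood test. At an unadjusted p under 0.05 there were 5, and DESeq2 called 1 (Myc, named after its value was seen). Mitf, which works with PU.1 on Acp5 and Ctsk, had 122 ± 2.18 CPM in KO and 118 ± 7.34 CPM in WT, overlapping. Fos, part of the AP-1 factor that acts with NFATc1, had 96.1 ± 15.0 CPM in KO and 76.9 ± 7.84 CPM in WT, also overlapping. Among 13 genes for repressors of osteoclast genes, 1 rose and 0 fell, with a median log2 fold change of 0.10. The gene that rose was Irf2, by 0.50 (standard error 0.10, adjusted p = 0.0318, same edgeR test, 0.109 without WT replicate 2). Irf8, a repressor of Nfatc1, had 351 ± 12.1 CPM in KO and 326 ± 18.3 CPM in WT with overlap.

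Of 20 other genes of acid secretion and matrix resorption, 18 were tested, 1 fell and 0 rose, with a median log2 fold change of 0.03. Ctsl, a lysosomal cathepsin, fell by 0.52 (standard error 0.10, adjusted p = 0.0306, edgeR's quasi-likelihood test with Benjamini-Hochberg adjustment, 0.112 without WT replicate 1). Car2, the carbonic anhydrase that supplies protons to the pump, had 469, 567 and 894 counts in KO and 206, 187 and 443 counts in WT. Its 3 KO libraries lay above the WT libraries, with a log2 fold change of 1.25 (standard error 0.35). With all libraries the adjusted p was 0.0926 in the same edgeR test and 0.0022 by DESeq2's Wald test. With a library left out, edgeR called Car2 in 1 of 6 fits. The adjusted p ran from 0.00679 without WT replicate 3 to 0.274 without WT replicate 1. Clcn7, the chloride and proton exchanger of the same membrane, had 248 ± 26.2 CPM in KO and 207 ± 3.74 CPM in WT without overlap (adjusted p = 0.131). Mmp9, the gelatinase of osteoclasts, had 406 ± 58.7 CPM in KO and 511 ± 53.4 CPM in WT with overlap (adjusted p = 0.181). By their means, Ctsl and Mmp9 lay on the same side as Acp5 and Ctsk, and Car2 and Clcn7 lay on the other.

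Of 30 other genes of macrophage fusion, 28 were tested, 7 fell and 2 rose, and the median log2 fold change was 0.0057. Cd9, a tetraspanin that takes part in the control of macrophage and osteoclast fusion, had 1147, 1309 and 1473 counts in KO and 3556, 4396 and 4224 counts in WT. It fell by 1.54 (standard error 0.09, adjusted p = 0.00045, edgeR's quasi-likelihood test with Benjamini-Hochberg adjustment), with narrow groups at 32.2 ± 0.63 CPM and 93.7 ± 8.05 CPM. Cd81, a related tetraspanin, fell by 0.65 (standard error 0.12, adjusted p = 0.0267, up to 0.107 with a library left out). Pdpn, encoding podoplanin, fell by 1.83 (standard error 0.28, adjusted p = 0.0179, 0.0737 without WT replicate 1) from a low level of 5.97 CPM in WT. Spp1, encoding osteopontin, an adhesive protein of bone and macrophages, fell by 0.79 (standard error 0.09, adjusted p = 0.0065), from 1115 ± 119 CPM to 646 ± 16.9 CPM. Cd47 rose by 0.36 (standard error 0.08, adjusted p = 0.0431, 0.141 without WT replicate 1). Its receptor Sirpa, with which it forms the contact pair of fusing macrophages, had 2016 ± 58.4 CPM in KO and 1816 ± 55.2 CPM in WT without overlap, and did not pass the test (adjusted p = 0.210).

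Podosomes are the actin-rich contacts that form the sealing zone of an osteoclast. Of their 27 listed genes, all were tested, 3 fell and 0 rose, with a median log2 fold change of -0.04. Vcl (vinculin) fell by 0.64, Actn1 (α-actinin) by 0.58 and Cttn (cortactin) by 0.49, with standard errors of 0.11, 0.08 and 0.11 and adjusted p of 0.0234, 0.0155 and 0.0453 in edgeR's quasi-likelihood test with Benjamini-Hochberg adjustment. Without WT replicate 1 the adjusted p of Vcl and Actn1 were 0.0996 and 0.0691, and that of Cttn reached 0.146 without KO replicate 1. Among 15 genes for M-CSF and the partners of the calcitonin receptor, 11 were tested, 1 rose and 1 fell, with a median log2 fold change of -0.04. Csf1, which encodes M-CSF, had 2644, 2760 and 3203 counts in KO and 5073, 5593 and 4909 counts in WT and fell by 0.76 (standard error 0.07, adjusted p = 0.0036, same edgeR test). Csf1r, its receptor, had 4536 ± 24.3 CPM in KO and 4410 ± 88.1 CPM in WT (adjusted p = 0.752). Ramp3, a membrane partner of the calcitonin receptor, had 16, 12 and 20 counts in KO and 0 in each WT library, at least 5.64-fold higher in KO against a floor of 3 counts per library. Its call (adjusted p = 0.0279) was lost in 5 of the 6 fits with a library left out.

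**Figure D4:**
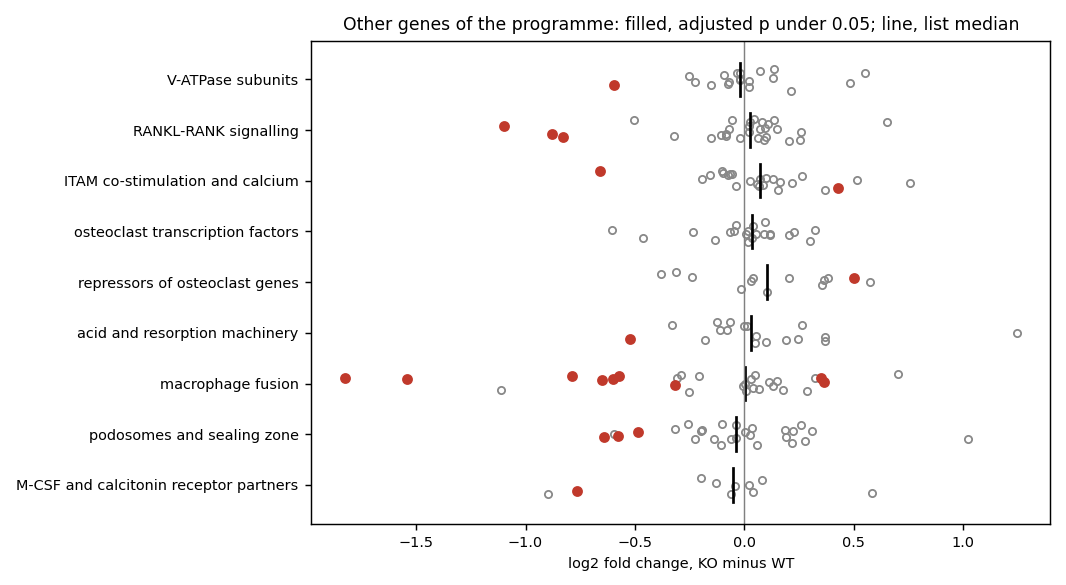
Log2 fold change of KO against WT for the tested genes of the 9 programme lists, without the members and without Ramp3, which had 0 counts in WT. Filled points passed an adjusted p under 0.05, and each black line is the median of the genes drawn. The medians lie near 0, and the fusion list holds the most filled points, with Pdpn at -1.83 and Cd9 at -1.54 farthest to the left.

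The genes whose pattern over the 6 libraries was nearest to that of Atp6v0d2 were found by the root mean square difference of log2 CPM, each gene centred on its own mean, among 13609 genes with at least 1 CPM on average. Cd9 was the nearest, with a difference of 0.135. Notch3 (0.140), Dusp4 (0.176), Rnf128 (0.183) and Sema5a (0.195) followed. Among the members, Acp5 had rank 41 (0.281) and Ctsk rank 94 (0.344), whereas Tnfrsf11a had rank 9751, Nfatc1 rank 9848 and Itgb3 rank 12531. These values describe 6 libraries whose main contrast is the genotype. The genes beside Atp6v0d2 on chromosome 4 had too few counts to tell whether they shared its pattern. Slc7a13 had 16, 4 and 24 counts in KO and 0, 0 and 11 in WT. Ttpa had 12, 20 and 27 counts in KO and 51, 4 and 9 in WT. Their adjusted p were 0.453 and 0.965 in edgeR's quasi-likelihood test with Benjamini-Hochberg adjustment. Their standard errors were 1.25 and 0.87 on the log2 scale, against a log2 fold change of -1.48 for Atp6v0d2.

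Markers of other cells were summed in the same libraries. The 14 stromal markers summed to between 1224 and 1596 CPM in KO and between 1582 and 2034 CPM in WT, 13 of them were tested, 3 fell (Pdgfra, Cxcl12 and Pdgfrb) and 0 rose, and Bglap was at 0 in every library. Col1a2 was the most abundant, at 516 CPM in KO and 678 CPM in WT. The mean stromal sum was lower in KO, the direction of Tnfrsf11b, Csf1, Pdpn, Spp1, Atp6v0d2, Acp5 and Ctsk. Its part in these results was not tested. By library, the stromal sum was 1224, 1596 and 1231 CPM in KO and 2034, 1582 and 1850 CPM in WT. The KO libraries lay below every WT library except for replicate 2, which was level with WT replicate 2.

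The 8 dendritic cell markers summed to between 19.4 and 28.9 CPM in KO and between 78.9 and 146 CPM in WT. Most of this was Itgax (CD11c), the 1 gene of the 6 tested that fell, from 111 CPM to 19.6 CPM, while the other markers stayed under 2 CPM on average in both groups. The median log2 fold change of the 6 was 0.82. Xcr1, a marker of cross-presenting dendritic cells, had 16, 36 and 40 counts in KO and 7, 8 and 8 in WT, and Ccr7, a homing receptor, had 12, 28 and 60 counts in KO and 0, 9 and 9 in WT. Both had higher KO libraries without overlap and did not pass the test (adjusted p = 0.0596 and 0.180, edgeR's quasi-likelihood test with Benjamini-Hochberg adjustment), though DESeq2 called Xcr1. Both were named after their values were seen. The 8 neutrophil markers, led by Ngp, summed to 635 to 1038 CPM in KO and 419 to 798 CPM in WT. None of the 8 was called at an adjusted p under 0.05 by edgeR's quasi-likelihood test, 1 had an unadjusted p under 0.05 and DESeq2 called 0. The 9 lymphocyte and erythroid markers, led by Nkg7, summed to no more than 8.11 CPM in any library, with Hbb-bs at 0. Their part in the results for the members was not tested.

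**Figure D5:**
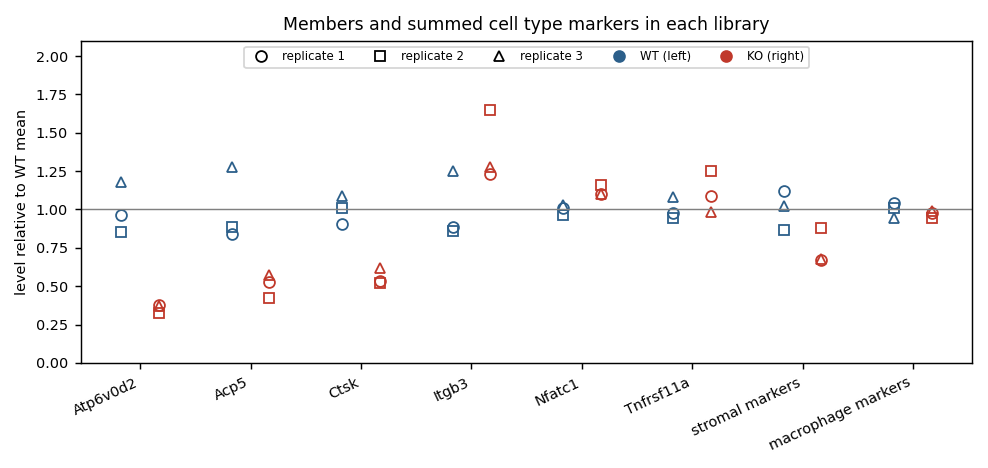
Level in each library relative to the mean of the 3 WT libraries, for 6 members and for the summed stromal and macrophage markers, with 1 symbol per replicate number, WT in blue and KO in red. Atp6v0d2 is at 0.328 to 0.377 of the WT mean in KO. The stromal sum is at 0.672 to 0.876 in KO and 0.868 to 1.12 in WT. The macrophage sum stays within 0.943 and 1.04 over all 6 libraries. Lyz2 is its largest part, and the log2 fold changes of its 12 markers run from -0.39 to 1.14.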

How the data were processed

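The 6 RNA-seq libraries of macrophages co-cultured with BMSCs were grouped by the genotype in the labels, 3 per genotype. The authors deposited, in 1 table for all libraries, raw read counts per gene, a signal column per library (counts divided by a size factor), their log2 fold change and their p-value and adjusted p-value. The signal columns and the results of their own comparison were not used. The paper names TopHat as the aligner and FPKM as the unit, whereas the deposited values are counts and the submitters' processing notes name fastp 0.17.1, HISAT2 2.1.0, DESeq2 1.18.1 and R 3.4.3. The counting program, strand setting and genome build are not given in the sources used here. Of 52550 gene identifiers, 52403 were in GENCODE M21 (GRCm38), 49909 of them with the same start and end. Where several rows had the same symbol, the row with the most counts kept it. All value columns were mapped to samples, and every row named a gene.

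Depth was 36143518 to 47417448 counts per library. Read counts without molecular identifiers are not independent molecules, so a floor of 3 counts for a 0 covers counting error only. Counts were filtered by filterByExpr, scaled by TMM and tested in edgeR 4.0.16 (R 4.3.3) with glmQLFit and glmQLFTest on genotype alone. P-values were adjusted by Benjamini-Hochberg over the 16402 tested genes, standard errors were the log2 fold change divided by the square root of F, and the scripts were tested on simulated data. Levels are given as CPM (TMM scaled), and levels per kb used the union of annotated exons. Library pairs of the same genotype differed by 30.4 to 61.6 in chi-square per gene, more than sampling noise. Each library was counted as 1 replicate, as the study describes them. The chi-square is set against counting noise only, so it cannot show that they are biological replicates.

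Genes were named by rule: the members, Msr1, partners fixed by name, up to 4 genes per list with the largest change among those called, the 5 genes most like Atp6v0d2, its nearest tested neighbours, and the leading or undetected markers. Of these, 1 partner and 1 marker are not reported here. The 9 programme lists covered V-ATPase subunits, RANKL and RANK signalling, ITAM co-stimulation, transcription factors, repressors, resorption, fusion, podosomes, and M-CSF with calcitonin receptor partners, and marker lists covered macrophage, stromal, dendritic, neutrophil, and lymphocyte and erythroid cells. The members, lists and rules were chosen with earlier results of these data known. Alternatives were other normalizations, DESeq2 1.42.0, other filters, the replicate number as a block, and each library left out.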

Additional observations from a re-analysis of the deposited data

How the results depend on the processing

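Msr1 kept its direction and its call under all alternatives run. The count of called members, given as a description since this contrast chose them, was 3 of 8, against 4.91% of all tested genes. With a library left out it was 1 to 2. Atp6v0d2 was called in all 6 of those fits. Acp5 and Ctsk were each called in 1 of the 6, with adjusted p up to 0.0839 and 0.0883 (edgeR's quasi-likelihood test). Those fits gave 0 to 7 programme genes higher and 3 to 12 lower, against 5 and 17, and 18 to 407 of all genes higher and 53 to 372 lower, against 369 and 436. DESeq2's Wald test called 15 programme genes higher and 23 lower, and 720 genes higher and 848 lower in all. When every gene with any count was kept, 2 programme genes were higher and 14 lower. Over the 25014 tested genes of that fit, 237 were higher and 288 lower. The replicate numbers of the labels did not pair the libraries (correlations of same-numbered deviations of -0.03, 0.02 and -0.0048). With the replicate block, 2 members were called, 0 programme genes were higher and 5 lower, and 59 genes were higher and 78 lower in all, and Itgav changed sign to -0.015 and Ttpa to 0.61 on the log2 scale. Without a library, Itgav ran from -0.50 to 0.43, Ttpa from -0.61 to 1.65 and Trem2 from -0.0073 to 0.13. The cause of these differences was not tested. The d2 share differed by -23.8 to -18.0 points with a library left out. Depth limits Dcstamp, Ocstamp, Tnfsf11, Oscar and Calcr, whose libraries held 0 to 55 counts.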
